A study of Mus musculus with 12 samples.

Results

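The genes described here make sphingolipids and attach their sugars. A set of 32 gene symbols covered ceramide synthesis, the first sugars of glycosphingolipids, the ganglioside core, the N-acetylgalactosamine sialyltransferases and the globo and lacto series, and every row of the count table whose Ensembl gene ID carried one of these symbols was taken. This gave 33 gene IDs of the 78334 in the table, since St6galnac2 was carried by 2 IDs. The rule used gene names only.

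The libraries came from the hypothalamus of male C57BL/6 mice that were 8 weeks old at the start. Per the study's methods, the 3 libraries of Ob + RSV, Ob and C came from 3 mice each, and for the other groups nothing says so. Ob + RSV (3 libraries) received a high-fat diet (HFD) with 60% of its energy from fat and daily oral gavage of resveratrol, a plant polyphenol, at 2.25 mg/kg. Ob + EAE (2 libraries) received the same diet and aged garlic extract at 200 mg/kg, and Ob + CUR (1 library) received it with curcumin, the pigment of turmeric, at 50 mg/kg. Ob (3 libraries) received the HFD with vehicle gavage, and C (3 libraries) received standard chow with vehicle gavage. Gavage was given for 28 days from 16 weeks of age. The sample records give 8 weeks of HFD in all, whereas the gavage starting at week 8 of the diet would make it longer, and this difference between the records was not resolved. No genetic change is named for any group, so the obesity model rests on diet.

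Sphingolipid synthesis starts in the endoplasmic reticulum, where serine and a fatty acid are joined to a sphingoid base, a second fatty acid is added by a ceramide synthase, and a desaturase turns dihydroceramide into ceramide. In the Golgi, ceramide receives glucose on the way to gangliosides, the sialic acid-bearing lipids of neuronal membranes, or, in the endoplasmic reticulum of myelinating cells, galactose on the way to the main glycolipids of myelin. The same core can be carried toward the globo and lacto series, which are scarce in adult brain.

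Counted reads ran from 15655156 to 26284661 per library. Genes with at least 1 read numbered 24450 to 38081, and replicate 2 of Ob + RSV, replicate 1 of Ob and replicate 2 of C had the fewest of their groups, with 24450, 26123 and 25979. In these 3 libraries the most frequent count from 2 reads upward was 13, 5 and 5 reads, against 2 or 3 reads in the other libraries. The reads carry no molecular identifiers and are not independent molecules. Levels are given as CPM, the read count scaled for depth, on library sizes adjusted by the trimmed mean of M-values (TMM). Of the markers of the labelled tissue, the neuropeptide genes Hcrt, Pmch, Oxt and Avp were detected in all 12 libraries, and Agrp, of arcuate feeding neurons, stayed between 0 and 2.05 CPM. The summed level of 7 hypothalamic markers was 209 CPM in the Ob + CUR library, the lowest of all, with Oxt at 3.96 CPM and Hcrt at 2.02 CPM. Not all markers of this list were low there: Nkx2-1, at 85.5 CPM, and Sim1, at 23.8 CPM, were the highest of all 12 libraries. In replicate 3 of Ob + RSV the sum of the 7 markers was 988 CPM, below all Ob and C libraries. Nkx2-1 was the lowest of all 12 libraries there, at 16.5 CPM, while Pmch, at 452 CPM, lay above the Ob range. The 3 cortex and hippocampus markers of this library summed to 23.7 CPM, the highest of all, against 3.02 to 10.6 CPM in Ob. The part of dissection in any result was not tested. In whole tissue, fewer cells of a type and less RNA per cell cannot be told apart.

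The members took 14.5 to 16.7 of every 10000 counted reads in Ob + RSV, 16.4 to 16.5 in Ob + EAE, 16.7 in Ob + CUR, 13.8 to 15.3 in Ob and 15.2 to 15.7 in C. All 33 gene IDs had at least 100 reads over the 12 libraries. Levels of different genes are compared only per kilobase of annotated exon. Per kilobase, the highest medians over all libraries were those of Degs1 (29.7 CPM per kilobase), B4galt6 (29.1), St3gal5 (26.1), B3galnt1 (25.1), St6galnac6 (22.3) and Cers2 (18.9). The lowest were those of Cers1 (0.125) and B3gnt5 (0.107). For 23 of the 33 members the highest library was under 2 times the lowest.

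**Figure D1:**
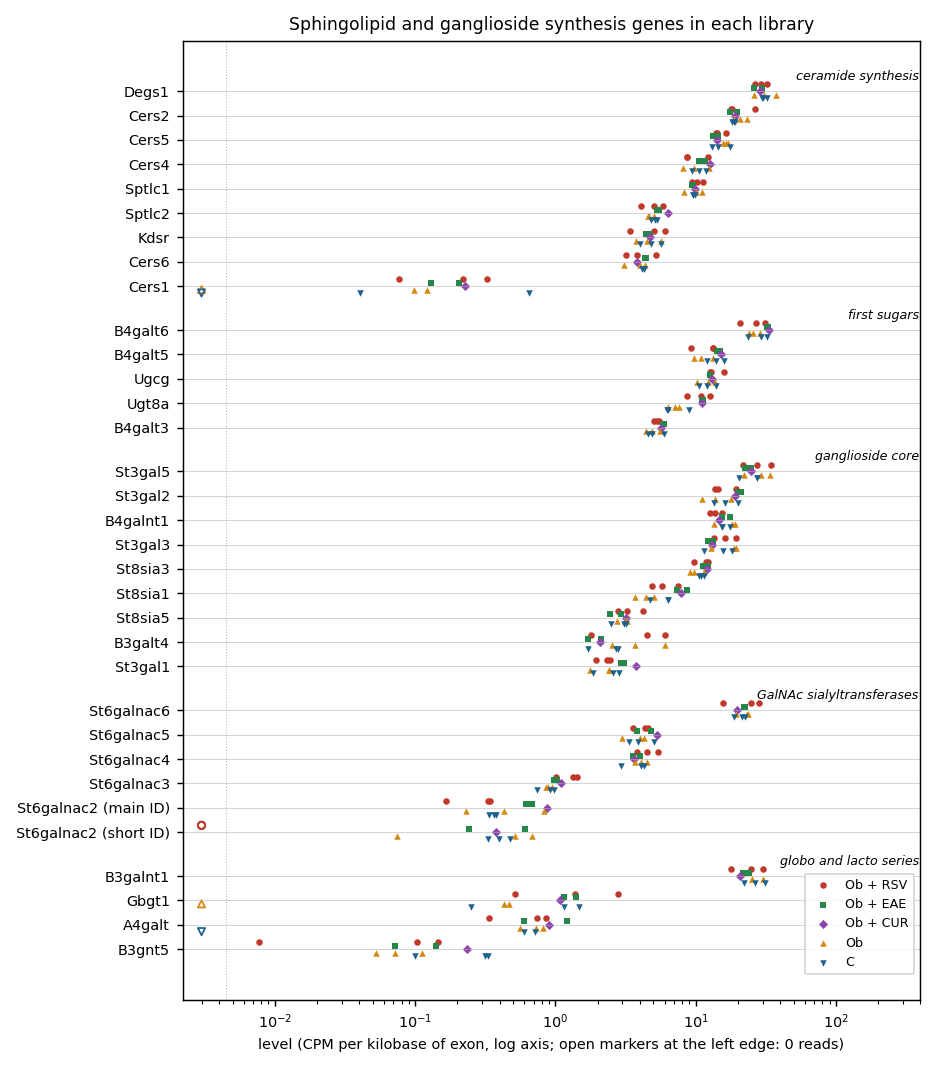
Level of each member in each library in CPM per kilobase of exon on a log axis, grouped by role and ordered by median, with 1 marker per library and open markers at the left edge for 0 reads. Degs1, B4galt6, St3gal5 and B3galnt1 lie highest, and the libraries spread most for the low members such as Cers1, Gbgt1, B3gnt5 and both St6galnac2 IDs.

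Of the 9 members of ceramide synthesis, 0 had an unadjusted p under 0.05 in any of the 4 comparisons made. Sptlc1 and Sptlc2 encode the catalytic subunits of serine palmitoyltransferase, the entry enzyme of the pathway. Sptlc1 averaged 36.7 ± 3.51 CPM in Ob + RSV, 34.9 ± 4.92 in Ob and 34.3 ± 0.887 in C (SD, n = 3 each). Sptlc2 averaged 40.7 ± 7.24 CPM in Ob + RSV, 38.6 ± 2.10 in Ob and 41.2 ± 1.74 in C (SD, n = 3 each). Kdsr, the reductase of the next step, ran from 27.8 CPM in replicate 2 of Ob + RSV to 49.6 CPM in replicate 3 of the same group, so its whole range lay within 1 group. Degs1, the dihydroceramide desaturase, averaged 76.2 ± 7.37 CPM in Ob + RSV, 81.3 ± 15.3 in Ob and 79.7 ± 3.37 in C (SD, n = 3 each). Sptlc2 was 43.0 and 44.5 CPM in Ob + EAE, above the 3 Ob libraries. Cers5 was 50.9 and 46.8 CPM in Ob + EAE, below the 55.8, 58.7 and 60.5 CPM of Ob. Such a lack of overlap between Ob + EAE and Ob was found for 38.8% of all genes tested. The single Ob + CUR library had the highest Sptlc2 of all 12, at 51.2 CPM.

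Among the ceramide synthases, which differ in the length of the fatty acid they use, Cers2, the enzyme of very long chains and prominent in myelin-forming cells, held a median of 39.2% of the family's level per kilobase. Cers5, which prefers palmitoyl chains, held 30.0%. Cers4 held 21.9% and Cers6, also a palmitoyl enzyme, 8.11%. Cers1, the stearoyl enzyme of neurons, held 0.265%. Cers1 had 0 to 37 reads per library. In the GENCODE vM21 annotation 42.5% of its exon length is shared on the same strand with Gdf1, whose own row held 0 reads in all 12 libraries, so that the Cers1 count is uncertain.

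The first sugars of the pathway split the flow between the ganglioside and myelin branches. Ugcg, the glucosylceramide synthase, averaged 71.9 ± 9.40 CPM in Ob + RSV, 62.7 ± 8.95 in Ob and 63.2 ± 8.70 in C (SD, n = 3 each), with overlapping libraries. B4galt6 and B4galt5, which add galactose to make lactosylceramide, shared their level as 69.0% and 31.0%, in medians per kilobase. B4galt3, a galactosyltransferase that acts mainly on glycoproteins, stayed between 24.1 and 32.6 CPM. Ugt8a, which makes galactosylceramide for myelin, is described with the comparisons.

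**Figure D2:**
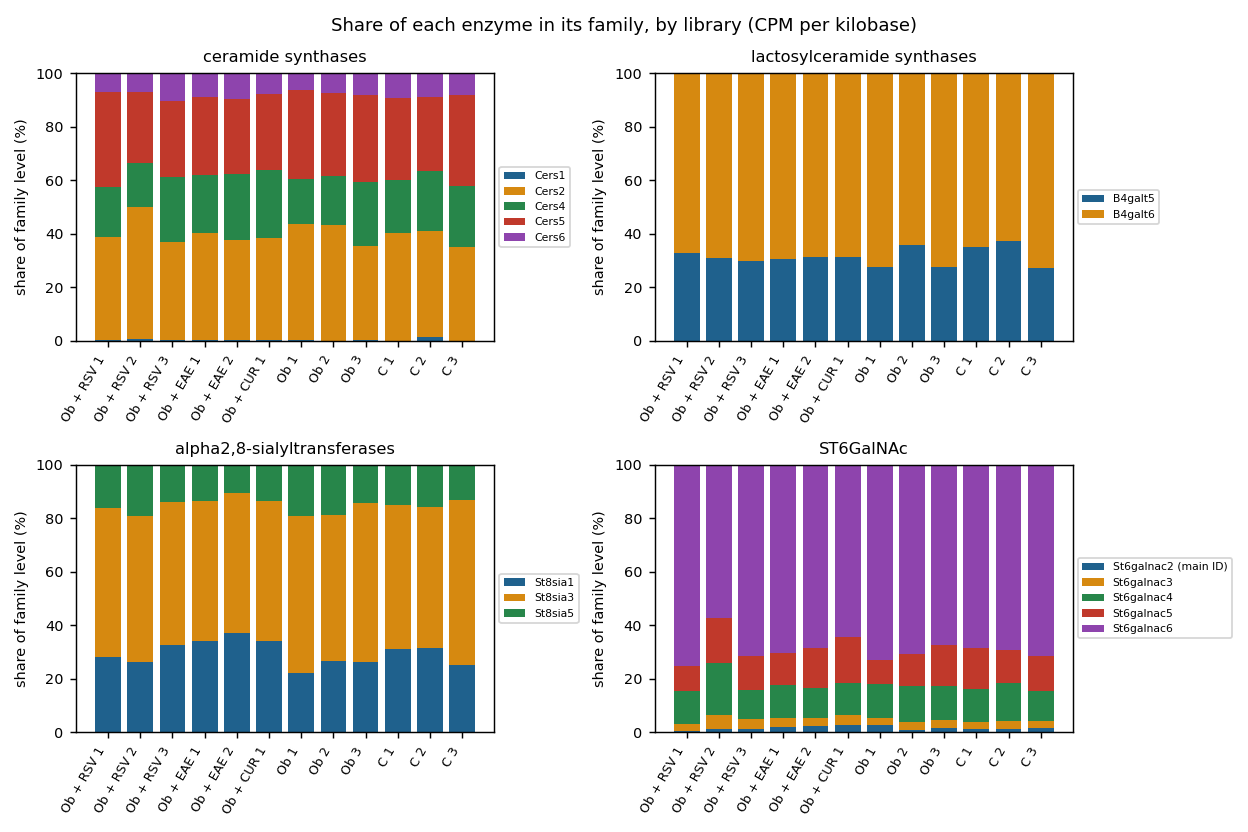
Share of each enzyme in its family in each library, from CPM per kilobase, in percent. Cers2 led the ceramide synthases, B4galt6 the lactosylceramide synthases, St8sia3 the alpha2,8-sialyltransferases and St6galnac6 the ST6GalNAc group in each of the 12 libraries. The short St6galnac2 ID is left out of the shares.

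In the ganglioside core, St3gal5 makes GM3, the first ganglioside, and held a median of 42.8% of the level per kilobase of the 4 ST3Gal members. St3gal2 and St3gal3, which cap the more complex gangliosides in mouse brain, held 26.9% and 25.9%, and St3gal1 held 4.01%. St3gal5 averaged 72.6 ± 16.3 CPM in Ob + RSV, 74.3 ± 15.5 in Ob and 65.7 ± 10.6 in C (SD, n = 3 each). B4galnt1, which adds N-acetylgalactosamine to form GM2 and GD2, had 52.8, 43.8 and 47.3 CPM in Ob + RSV, 62.8, 65.6 and 46.7 CPM in Ob and 52.9, 60.9 and 53.0 CPM in C. Its 3 Ob + RSV libraries lay below all 3 C libraries and overlapped with Ob. Of the alpha2,8-sialyltransferases, St8sia3 held a median of 54.0%, St8sia1, the GD3 synthase that opens the b series, 29.7%, and St8sia5, which adds a further sialic acid, 14.8%.

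The ST6GalNAc enzymes attach sialic acid to N-acetylgalactosamine. St6galnac6, a ganglioside enzyme, held a median of 69.8% of the family's level per kilobase, against 12.7% for St6galnac5 and 12.4% for St6galnac4, which acts mainly on O-glycans. St6galnac6 also spread widely within Ob + RSV, where it had 135, 76.0 and 120 CPM. In the globo and lacto series, B3galnt1, the globoside synthase, averaged 49.5 ± 12.6 CPM in Ob + RSV, 54.6 ± 5.76 in Ob and 53.8 ± 8.90 in C (SD, n = 3 each). A4galt, which makes the globo precursor Gb3, had 0 to 59 reads per library, and B3gnt5, which starts the lacto series, had 1 to 35 reads. Per kilobase, B3galnt1 stood far above A4galt, the enzyme before it in the globo series, with medians of 25.1 and 0.720 CPM per kilobase.

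The start-site windows of the members were read from the RefSeq table for GRCm38.p6, an older build than that of the counts, and were matched by symbol. Each window runs from 250 bases before the gene start to 50 bases after it. For 24 of the 32 symbols there were 25 windows, with 2 for Cers2. The median GC content was 64.7% in the members' windows and 52.7% in all 32851 windows of the table, with a median of 21 and 7 CpG sites. The GC box GGGCGG, searched on both strands, was in 21 of 25 windows (84.0%), against 35.7% of all windows. CCAAT was in 8 of 25, against 37.4%, CACGTG in 4 of 25 (16.0%), against 7.15%, and TATAAA in 0 of 25, against 13.6%. The windows of the whole table were not limited to genes with reads here. Whether the members differ from other expressed genes was not tested. The windows of the 3 members on which the comparisons below turn are printed 5′ to 3′ on the gene's strand, with each GC box and CCAAT in capitals. That of St8sia1 lies at chr6:142964403-142964702 (minus strand), that of Ugt8a at chr3:125938603-125938902 (minus strand) and that of Gbgt1 at chr2:28496641-28496940 (plus strand).
St8sia1: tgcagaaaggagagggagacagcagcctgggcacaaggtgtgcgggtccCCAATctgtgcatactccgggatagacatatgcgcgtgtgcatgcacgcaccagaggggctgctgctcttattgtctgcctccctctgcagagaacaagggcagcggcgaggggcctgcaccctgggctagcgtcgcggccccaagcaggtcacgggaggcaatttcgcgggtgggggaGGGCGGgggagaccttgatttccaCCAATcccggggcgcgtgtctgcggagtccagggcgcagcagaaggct
Ugt8a: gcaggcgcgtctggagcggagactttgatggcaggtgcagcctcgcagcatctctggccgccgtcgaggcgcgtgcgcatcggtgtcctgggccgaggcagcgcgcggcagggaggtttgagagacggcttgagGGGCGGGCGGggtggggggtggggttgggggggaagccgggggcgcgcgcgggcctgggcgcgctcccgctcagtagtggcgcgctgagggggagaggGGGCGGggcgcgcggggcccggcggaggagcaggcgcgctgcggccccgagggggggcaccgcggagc
Gbgt1: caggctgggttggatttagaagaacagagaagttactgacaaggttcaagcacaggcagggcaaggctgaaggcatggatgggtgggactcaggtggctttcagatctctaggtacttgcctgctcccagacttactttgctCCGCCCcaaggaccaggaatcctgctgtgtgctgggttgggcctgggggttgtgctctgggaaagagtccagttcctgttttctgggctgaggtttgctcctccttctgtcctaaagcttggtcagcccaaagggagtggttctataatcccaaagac
The Ugt8a window held 40 CpG sites and 3 GC boxes, of which a pair overlaps, the St8sia1 window 19 CpG sites, 1 GC box and 2 CCAAT boxes, and the Gbgt1 window 1 CpG site and 1 GC box on the opposite strand. These matches are descriptions of the letters only, and no binding was measured.

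The effect of resveratrol in obese mice was addressed by Ob + RSV vs. Ob. No member passed the adjusted threshold, and the members with the smallest p were Ugt8a, Gbgt1 and St8sia1, higher in Ob + RSV, and the short St6galnac2 ID, lower. Of the 33 members, 23 had a higher and 10 a lower fitted value in Ob + RSV, with a median log2 fold change (log2FC) of 0.07, against a median of 0 over all genes tested. Comparisons were fitted with edgeR's quasi-likelihood test over the 9 libraries of Ob + RSV, Ob and C, and a call needed an adjusted p (Benjamini-Hochberg) under 0.05 together with a log2FC of 1 or more, up or down. By this rule 0 of 33 members were called, as were 0 of all 33534 genes tested (0%). DESeq2 also called 0 members. At an unadjusted p under 0.05 there were 4 members (12.1%), 3 higher and 1 lower, against 3.16% of all genes, and DESeq2 also gave 4. Without replicate 1 or 2 of Ob, or without replicate 2 or 3 of Ob + RSV, there were 2. The libraries did not overlap for 4 members, again 3 higher and 1 lower, against 6.95% of all genes. In this and the other comparisons the shares were not matched for read depth. Genes were tested from 10 reads upward, whereas every member had at least 100 reads over the 12 libraries. The shares are therefore not read as an enrichment of the members. Ob is shared with the comparisons Ob vs. C and Ob + EAE vs. Ob, so these are not independent of each other.

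Ugt8a had 39.4, 49.4 and 57.2 CPM in Ob + RSV, against 34.7, 28.9 and 32.5 CPM in Ob. All 3 Ob + RSV libraries lay above all 3 Ob libraries. The log2FC was 0.61 (SE 0.23), with an unadjusted p of 0.0125 and an adjusted p of 1 by edgeR. Without replicate 3 of Ob + RSV the unadjusted p was 0.0668, and without replicate 2 of Ob it was 0.0562. Replicate 3 of Ob + RSV is also the library with the highest cortex and hippocampus sum. Ugt8a belongs to oligodendrocytes, and the fitted value of all 10 oligodendrocyte markers examined was also higher in Ob + RSV, with a median log2FC of 0.20, 1 at an unadjusted p under 0.05 and 0 called. Their summed level was 7364 to 9331 CPM in Ob + RSV and 6928 to 7482 CPM in Ob, so that the groups overlapped. Fa2h, which hydroxylates the fatty acid of myelin galactolipids, had a log2FC of 0.39 (SE 0.24), and Gal3st1, which sulfates galactosylceramide to sulfatide, had -0.06 (SE 0.28). The part of oligodendrocyte content in the Ugt8a difference was not tested.

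Gbgt1, the Forssman glycolipid synthase that extends globoside, had 17, 84 and 32 reads in Ob + RSV, against 0, 10 and 10 reads in Ob. On the CPM scale this was 0.686, 3.74 and 1.85 in Ob + RSV and 0, 0.58 and 0.62 in Ob, without overlap, although the lowest Ob + RSV library was close to the highest Ob library. The log2FC was 2.38 (SE 1.01), with an unadjusted p of 0.0243 and an adjusted p of 1. The library with 84 reads and the library with 0 reads are both among the 3 with large most frequent counts. Without replicate 2 of Ob + RSV the log2FC was 1.65 (unadjusted p 0.133), and without all 3 such libraries it was 1.06 (unadjusted p 0.173).

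St8sia1 had 45.5, 53.9 and 69.8 CPM in Ob + RSV, against 34.7, 41.3 and 47.0 CPM in Ob. The lowest Ob + RSV library lay below the highest Ob library. Its log2FC was 0.46 (SE 0.22), with an unadjusted p of 0.0460 and an adjusted p of 1, and without replicate 3 of Ob + RSV it was 0.27 (unadjusted p 0.257). Pdgfra, a marker of oligodendrocyte precursors, had 53.2, 55.9 and 53.9 CPM in Ob + RSV, against 40.5, 43.9 and 40.8 CPM in Ob. The precursor list as a whole did not go this way: 2 of the 4 markers had a higher fitted value in Ob + RSV, with a median log2FC of -0.004. Their sum was 280 to 399 CPM in Ob + RSV and 236 to 407 CPM in Ob, so that the groups overlapped. The part of precursor content in the St8sia1 values was not tested. St6galnac3, which makes alpha-series gangliosides, had 9.08, 12.9 and 12.0 CPM in Ob + RSV, against 8.03, 8.58 and 7.69 CPM in Ob. These did not overlap, while the fit gave a log2FC of 0.49 (SE 0.32) and an unadjusted p of 0.136.

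St6galnac2, an enzyme of O-glycans, needs both of its IDs. The short ID, ENSMUSG00000110170, has 1683 bases of exon, 22.8% of which are shared with the longer ID, ENSMUSG00000057286, of 5790 bases. The short ID had 0 reads in each of the 3 Ob + RSV libraries, against 21, 15 and 2 reads in Ob and 13, 12 and 17 reads in C. A floor of 3 reads over the group was set against the pooled reads of Ob and of C. On this, the short ID in Ob + RSV lay 15.9-fold below Ob and 14.4-fold below C. The Ob and C reads were taken as exact, and reads are not independent molecules, so these ratios are no strict lower bounds. The unadjusted p values were 0.00124 and 0.00134 and the adjusted p values 1 by edgeR. Without replicate 2 of Ob + RSV, where the most frequent count was 13 reads, the ratios were 10.3-fold and 9.41-fold. Replicate 1 of Ob and replicate 2 of C, also with large most frequent counts, were kept throughout. These ratios hold for the pooled groups only: replicate 3 of Ob, at 0.124 CPM, lay near the floor of 0.0465 CPM. The longer ID had 24, 43 and 34 reads in Ob + RSV, against 88, 23 and 40 reads in Ob and 51, 35 and 45 reads in C, and its log2FC was -0.83 (SE 0.63, unadjusted p 0.201) against Ob. With both IDs added, St6galnac2 had 0.969, 1.91 and 1.96 CPM in Ob + RSV, 4.60 and 4.32 CPM in Ob + EAE, 5.65 CPM in Ob + CUR, 5.99, 2.20 and 2.61 CPM in Ob and 2.75, 2.60 and 2.91 CPM in C. In this sum the 3 Ob + RSV libraries were the lowest of all 12, and how overlapping reads were assigned between the IDs is not given in the sources used here.

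**Figure D3:**
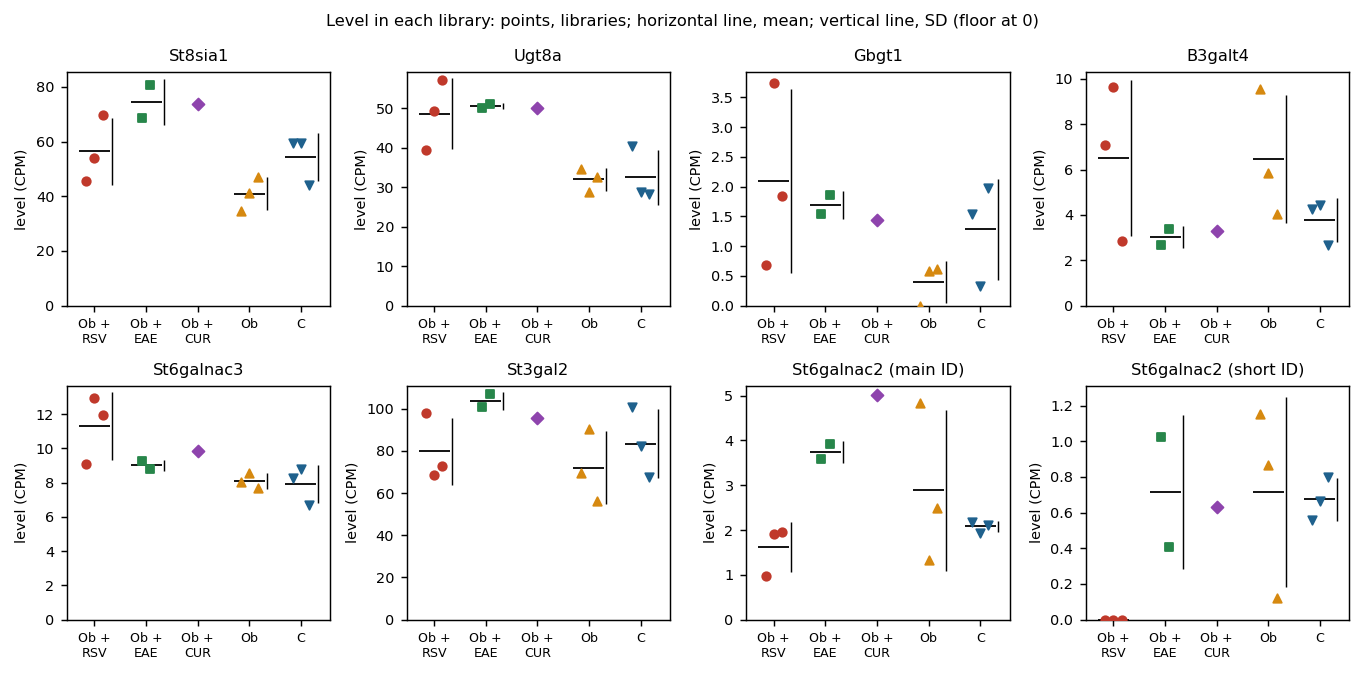
Level in CPM in each library for 8 members, with a point per library, a horizontal line at the group mean and a vertical line for 1 SD. Ob + EAE and Ob + CUR lie above Ob for St8sia1 and Ugt8a, and the short St6galnac2 ID is at 0 in the 3 Ob + RSV libraries.

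How obesity itself affected these genes was addressed by Ob vs. C, and no member stood out from the background. In the fit, 16 members were higher and 17 lower in Ob, with a median log2FC of -0.03, against -0.00343 over all genes. Of the 33 members, 0 were called, of all genes 0%. At an unadjusted p under 0.05 there were 0 members, against 2.75% of genes, and DESeq2 likewise gave 0. There was 1 without replicate 2 or 3 of C and 2 without replicate 3 of Ob. For 0 members did the libraries not overlap, against 7.65% of genes. The smallest p belonged to St8sia1, with 34.7, 41.3 and 47.0 CPM in Ob, against 59.3, 59.4 and 44.1 CPM in C. Its log2FC was -0.42 (SE 0.22, unadjusted p 0.0672, adjusted p 1), and replicate 3 of C fell within the Ob range. Gbgt1 had 0, 10 and 10 reads in Ob, against 36, 6 and 42 reads in C, with a log2FC of -1.70 (SE 0.99, unadjusted p 0.0980). B3galt4, which makes GM1 and GD1b, had 9.57, 5.85 and 4.03 CPM in Ob, against 4.25, 4.43 and 2.68 CPM in C, with a log2FC of 0.76 (SE 0.45). B4galt5 had 41.8, 57.4 and 47.2 CPM in Ob, against 68.8, 59.9 and 51.6 CPM in C, with a log2FC of -0.32 (SE 0.22). B3gnt5 had 5, 10 and 6 reads in Ob, against 12, 31 and 35 reads in C, with a log2FC of -1.66 (SE 1.13). Each of these last 3 had an adjusted p of 1, and the Ob and C libraries of each overlapped.

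Treated obese mice were set against lean ones in Ob + RSV vs. C. Here 17 members were higher and 16 lower, with a median log2FC of 0.02. By edgeR and by DESeq2, 0 of 33 members were called, and 0% of all genes were called by edgeR. At an unadjusted p under 0.05 there were 2 members (6.06%), against 2.87% of genes, and DESeq2 also gave 2. Without replicate 2 or 3 of C there was 1. These were Ugt8a, with 39.4, 49.4 and 57.2 CPM in Ob + RSV against 40.6, 28.8 and 28.2 CPM in C, and the short St6galnac2 ID. The Ugt8a log2FC was 0.57 (SE 0.23, unadjusted p 0.0192, adjusted p 1), and its lowest Ob + RSV library lay just below the highest C library. The unadjusted p was 0.0817 and 0.0709 without replicates 2 and 3 of C, 0.0944 without replicate 3 of Ob + RSV and 0.133 without the 3 libraries with the fewest genes. All 10 oligodendrocyte markers had a higher fitted value here as well, with a median log2FC of 0.38, 2 at an unadjusted p under 0.05 and 0 called, and their sum was 7364 to 9331 CPM in Ob + RSV and 5262 to 7974 CPM in C. The libraries did not overlap for 3 members, against 5.43% of genes: St6galnac3, with 9.08, 12.9 and 12.0 CPM in Ob + RSV against 8.29, 8.81 and 6.67 CPM in C, B4galnt1 and the short St6galnac2 ID. St6galnac3 had a log2FC of 0.50 (unadjusted p 0.125), B3galt4 of 0.76 (unadjusted p 0.0980) and B3gnt5 of -1.55 (unadjusted p 0.180). For Gbgt1 it was 0.69 (SE 0.93, unadjusted p 0.466), and without replicate 2 of Ob + RSV it was -0.05, so that no direction is given.

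**Figure D4:**
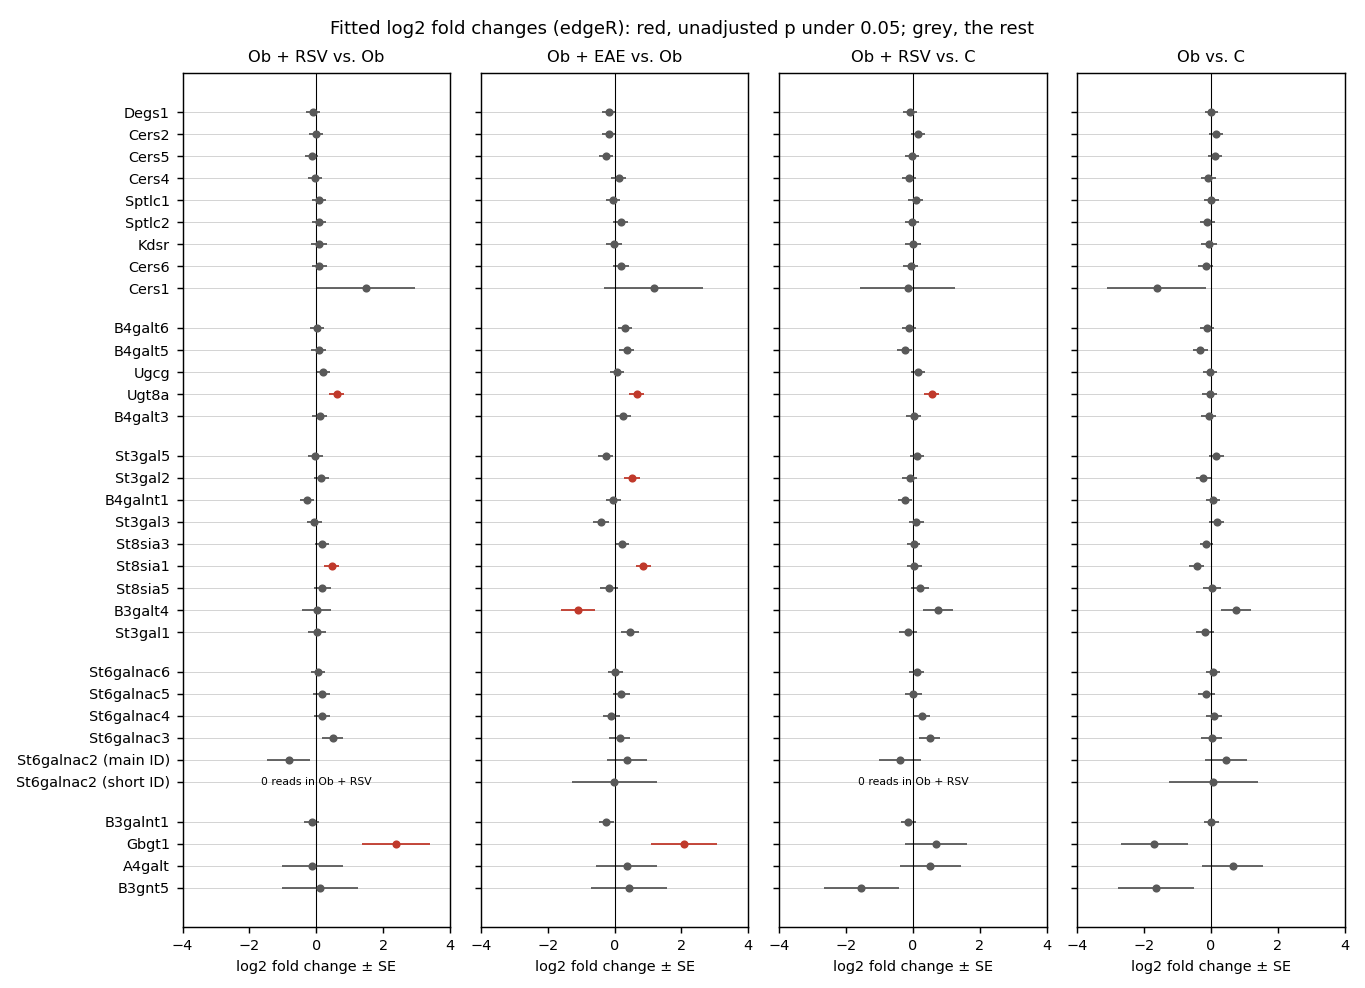
Fitted log2FC of each member with its SE in 4 comparisons, with members at an unadjusted p under 0.05 in red. Ugt8a is to the right of 0 in all 3 comparisons that involve a treatment, most members lie close to 0, and the short St6galnac2 ID has no point where Ob + RSV had 0 reads.

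In Ob + EAE vs. Ob, which asked the same of garlic extract and was fitted over all 12 libraries, St8sia1 was higher in Ob + EAE with an adjusted p of 0.0378, and no other member had an adjusted p under 0.05. The p values of this comparison take the 2 Ob + EAE libraries as separate mice, which nothing states. In total 20 members were higher and 13 lower, with a median log2FC of 0.15, against 0.05 over all genes. By the rule with the log2FC minimum 0 of 33 members were called, by edgeR and by DESeq2, against 1.84% of the 36164 genes tested. At an adjusted p under 0.05 with any log2FC there was 1 member (3.03%), against 2.38% of genes. At an unadjusted p under 0.05 there were 5 members (15.2%), 4 higher and 1 lower, against 13.4% of genes, and DESeq2 also gave 5. Without replicate 1 of Ob or either Ob + EAE replicate there were 2. The libraries did not overlap for 14 members (42.4%), 11 higher and 3 lower, against 38.8% of genes. These shares, that at an adjusted p under 0.05 included, lie near the background and are no result about the members. The number of genes called over the whole table was 665 with all libraries, 18 without replicate 1 of Ob, 1172 without replicate 3 of Ob, and 228 and 19 without replicates 1 and 2 of Ob + EAE.

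St8sia1 had 68.4 and 80.5 CPM in Ob + EAE, against 34.7, 41.3 and 47.0 CPM in Ob. Both Ob + EAE libraries also lay above the 3 C libraries, which had 59.3, 59.4 and 44.1 CPM. The log2FC was 0.86 (SE 0.23), below the minimum of 1. Over the alternatives, which include DESeq2 and a block for replicate number in edgeR, its adjusted p ran from 0.000419 to 0.650. Leaving out 1 library took the adjusted p by edgeR past the threshold in 5 cases. It was 0.232 without replicate 1 of Ob, 0.0817 without replicate 2 of Ob, 0.135 and 0.650 without replicates 1 and 2 of Ob + EAE, and 0.0627 without replicate 2 of C. Within the alpha2,8-sialyltransferases, the share of St8sia1 per kilobase was 34.1% to 37.1% in Ob + EAE, 34.0% in Ob + CUR, 22.2% to 26.5% in Ob and 25.2% to 31.5% in C. St8sia5 and St8sia3 had log2FCs of -0.17 and 0.21.

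Ugt8a had 50.0 and 51.2 CPM in Ob + EAE, against the 28.9 to 34.7 CPM of Ob, with a log2FC of 0.66 (SE 0.23, adjusted p 0.13). Of the oligodendrocyte markers, 3 of 10 had a higher fitted value in Ob + EAE, with a median log2FC of -0.13, and their sum was 5228 to 5598 CPM in Ob + EAE and 6928 to 7482 CPM in Ob. St3gal2 had 101 and 107 CPM in Ob + EAE, against 69.4, 90.3 and 56.1 CPM in Ob, with a log2FC of 0.53 (SE 0.23, adjusted p 0.285). B3galt4 had 2.69 and 3.37 CPM in Ob + EAE, against 9.57, 5.85 and 4.03 CPM in Ob, with a log2FC of -1.10 (SE 0.50, adjusted p 0.322). Gbgt1 had 33 and 41 reads in Ob + EAE, against 0, 10 and 10 reads in Ob, with a log2FC of 2.08 (SE 0.99, adjusted p 0.356). St3gal2 and Gbgt1 lay above all Ob libraries and B3galt4 below them.

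Other measures also separated Ob + EAE from Ob. Genes with at least 1 read numbered 37165 and 38081 in Ob + EAE and 26123 to 32664 in Ob. The 4 endothelial markers summed to 210 to 213 CPM in Ob + EAE and 52.6 to 122 CPM in Ob, and 3 of the 4 were called. Of the 4 oligodendrocyte precursor markers, 3 had a higher fitted value in Ob + EAE (median log2FC 0.41), 2 were at an unadjusted p under 0.05 and 1 was called, although their sum overlapped, at 356 to 364 CPM in Ob + EAE and 236 to 407 CPM in Ob. Pdgfra, a precursor marker, had 79.8 and 88.0 CPM in Ob + EAE and 74.0 CPM in Ob + CUR. In Ob it had 40.5, 43.9 and 40.8 CPM. Cspg4 also lay above the Ob libraries in both groups, while Olig1 and Olig2 lay within the Ob range. Olig1 had 187 and 166 CPM in Ob + EAE and 173 CPM in Ob + CUR, against 279, 211 and 135 CPM in Ob. Of the microglia and the hypothalamus markers 1 each was called, of 6 and 7 tested. All 4 ependymal markers had lower fitted values in Ob + EAE, 3 of them at an unadjusted p under 0.05. The part of these differences in the St8sia1 and Ugt8a values was not tested.

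**Figure D5:**
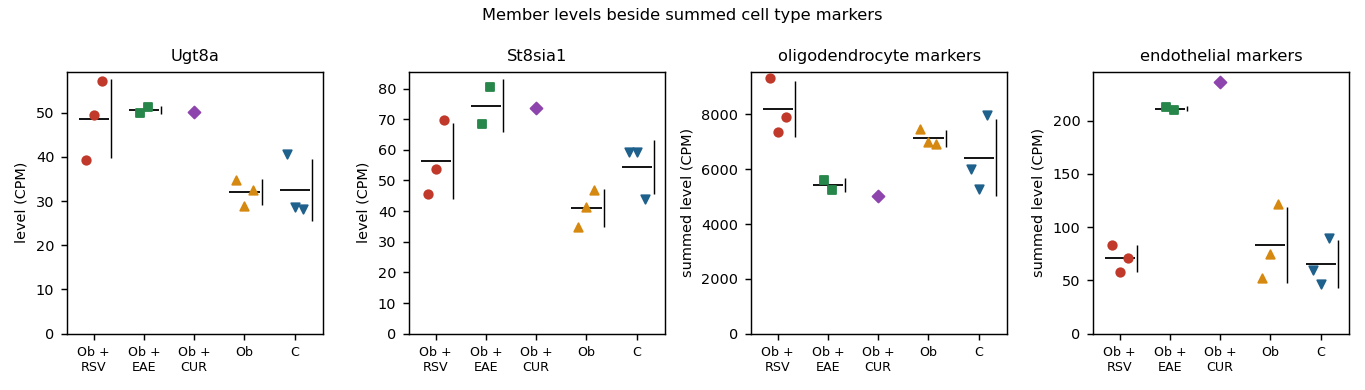
CPM of Ugt8a and St8sia1 in each library beside the summed CPM of 10 oligodendrocyte and 4 endothelial markers, with a point per library, the group mean and 1 SD. Ob + EAE and Ob + CUR lie above Ob for both members and the endothelial sum, and below Ob for the oligodendrocyte sum.

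The single Ob + CUR library has no replicate, and its values are given with no test. It lay above all 3 Ob libraries for 17 of 33 members (51.5%) and below them for 4 (12.1%), against 11565 and 7086 of the 36164 genes with at least 10 reads. Against C it lay above for 12 members (36.4%) and below for 4 (12.1%), where 28.9% and 16.1% of these genes did. Ugt8a had 50.1 CPM and St8sia1 73.5 CPM in Ob + CUR, both above the Ob and C ranges. St3gal1 had 25.7 CPM, B4galt6 192 CPM and Cers4 155 CPM, the highest values of the 12 libraries. Gbgt1 had 34 reads, or 1.43 CPM, within the range of C. The endothelial sum of this library was 236 CPM and its oligodendrocyte sum 5038 CPM, as in Ob + EAE and away from Ob.

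A further list held 46 genes of the same pathway that are no members, of which 45 were tested in each comparison. They belong to further steps and regulators of ceramide synthesis, ceramide transfer, sphingomyelin and sulfatide synthesis, sialylation and sphingolipid breakdown. None was called in any of the 4 comparisons, and those at an unadjusted p under 0.05 numbered 2 in Ob + RSV vs. Ob, 8 in Ob + EAE vs. Ob, 0 in Ob + RSV vs. C and 1 in Ob vs. C. These were 4.44%, 17.8%, 0% and 2.22% of the 45, against 3.16%, 13.4%, 2.87% and 2.75% of all genes tested. The resveratrol pair was Asah2, the neutral ceramidase, with a log2FC of 0.61 (SE 0.27), and Smpd2, a neutral sphingomyelinase, with -0.66 (SE 0.24), both with an adjusted p of 1. The gene of the obesity comparison was Sgpp2, a sphingosine phosphate phosphatase, with a log2FC of -0.53 (SE 0.24, adjusted p 1). In Ob + EAE vs. Ob, Asah2 had a log2FC of 0.97 (SE 0.27, adjusted p 0.0489), Degs2, a desaturase that can also hydroxylate, 1.72 (SE 0.60, adjusted p 0.138) and Cert1, which carries ceramide to the Golgi, 0.60 (SE 0.23, adjusted p 0.185). Of the 8 genes there, 4 were higher, with Sgpp2 the fourth, and 4 were lower. The lower ones were Hexa, a subunit of the lysosomal hexosaminidase that degrades GM2 (log2FC -0.60), Smpd2 (-0.62), Ormdl3, an inhibitor of serine palmitoyltransferase (-0.53), and Sptssa, a small subunit of the same enzyme (-0.56).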

How the data were processed

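Poly(A) RNA of 12 hypothalamus libraries (stranded kit, paired-end reads) was sequenced. Per the study's methods, the authors aligned reads with HISAT2 and counted them per gene with featureCounts. The submitters' processing notes name GRCm39. Which annotation release, strand setting and rule for multiply aligned reads were used is not given in the sources used here. Overlapping genes are therefore uncertain: 3 members share exons with another gene on the same strand and 10 have exons opposite another gene. The deposited values are whole counts of reads per gene ID, not normalized.

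Gene symbols and exon lengths were taken from GENCODE vM21, which named 51486 of the 78334 IDs. Counts were tested with edgeR 4.0.16 in R 4.3.3 (quasi-likelihood test, TMM scaling) after dropping genes under 10 reads over the libraries of the fit. DESeq2 1.42.0 was an alternative. The fit was run on simulated counts for Ob vs. C, with the same spread set for all genes and changes in genes of many reads only. That run does not cover members of few reads or the fit of Ob + EAE vs. Ob. Tables and plots used Python 3.11.15, pandas 2.3.3 and matplotlib 3.10.9. Levels are CPM on TMM-scaled sizes. Fold changes and SE are given per comparison for the 5 members with the smallest p, and for Gbgt1 in all. For other pathway genes, up to 3 per comparison are named. Fa2h, Gal3st1, Pdgfra, the other named pathway genes of Ob + EAE vs. Ob, St8sia3, St8sia5, the members named by level and the longer St6galnac2 ID were added after their values were seen. Members and lists were chosen with earlier results of these data known. Read floors cover counting error only. Nothing says how libraries were batched.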

Additional observations from a re-analysis of the deposited data

How the results depend on the processing

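Alternatives were scaling (RLE, upper quartile), the filter on low counts, DESeq2, the libraries in the fit, a replicate block, leaving out each library, and leaving out together the 3 libraries with the fewest genes. Of 388 alternative values for 21 fold changes of named members, 2 changed direction and 1 came to meet the call rule, which none had met with all libraries, so that no call could be lost. The adjusted p of St8sia1 in Ob + EAE vs. Ob ran from 0.000419 to 0.650. For Gbgt1 in Ob + RSV vs. C the log2FC turned to -0.50 without the 3 libraries, and leaving out 1 library gave -0.046 (Ob + RSV replicate 2) to 1.12 (C replicate 3).

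The number of members called was 0 under every alternative run except the block in Ob + EAE vs. Ob. The number of genes called with every gene of at least 1 read was 11 in Ob + RSV vs. Ob, 1031 in Ob + EAE vs. Ob, 32 in Ob + RSV vs. C and 35 in Ob vs. C. With filterByExpr it was 77 in Ob + EAE vs. Ob, and without the 3 libraries it was 1. Leaving out 1 library gave 0 to 2 genes in Ob + RSV vs. Ob, 18 to 1172 in Ob + EAE vs. Ob, 0 to 3 in Ob + RSV vs. C and 0 to 11 in Ob vs. C. Causes were not tested.

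The libraries share only a number: deviations of same-numbered libraries correlated between -0.03 and 0.33, so a pairing was not assumed. With a replicate block the number of genes called was 10 in Ob + RSV vs. Ob, 1417 in Ob + EAE vs. Ob, 35 in Ob + RSV vs. C and 50 in Ob vs. C. With the block 1 member was called in Ob + EAE vs. Ob, B3galt4, with a log2FC of -1.39 (adjusted p 0.0408). Depth limits the members of few reads (Cers1, A4galt, Gbgt1, B3gnt5 and the short St6galnac2 ID).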
